A study of Mus musculus with 20 samples.

Results

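The 10 genes described here are classical targets of NRF2 (gene Nfe2l2), the transcription factor of the antioxidant response. They are Txn1, Txnrd1, Prdx1, Srxn1, Gclc, Gclm, Gsr, Slc7a11, Hmox1 and Nqo1. They were chosen by name from knowledge of the pathway, and each symbol was matched to 1 Ensembl ID of the gene count table. All 10 of 10 were found among the 63318 genes listed, and all 10 passed the filter on low counts, which left 19741 genes. The data are short-read poly(A) RNA sequencing of mouse heart tissue in 16 libraries, 4 groups of 4.

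The MI group was myocardial infarction, sampled 72 h after surgery, and MISham was its sham operation. The IR group was ischemia-reperfusion, labelled "LCA for 40 min" and then 72 h of reperfusion, and IRSham was its sham operation. The labels do not spell out LCA, and they give no time for either sham group and no genotype, strain or age for any group. Tissue of MI and MISham took in the core of the infarct and its periphery, whereas tissue of IR and IRSham was from the core, so that kind of injury and region sampled cannot be told apart. Nothing in the labels ties a library to an animal, and p-values therefore cover only the spread among libraries, which may be technical.

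In resting cells the adaptor KEAP1 holds NRF2 for destruction by a CUL3 ubiquitin ligase. Oxidants and electrophiles modify KEAP1, NRF2 builds up, pairs with a small MAF protein and binds antioxidant response elements in its target genes, where BACH1 can compete with it. The targets regenerate thioredoxin and glutathione, the main carriers of reducing power in the cell, and clear heme and quinones. In the heart these systems are known to limit oxidative damage after ischemia.

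Promoter windows of some of the genes are printed because members of the group moved together after injury and because Nqo1, a textbook target, moved the other way. RefSeq (GRCm38.p6) gave windows from 250 bases before to 50 after the annotated start for 7 of the 10 genes, 9 windows in all, with 3 for Txnrd1. Gclc, Gsr and Hmox1 were not among them. The files use GRCm39, so these coordinates belong to the RefSeq build alone. Each window was searched on both strands for the core of the antioxidant response element, TGACNNNGC, and for the AP-1 site, TGANTCA. Capitals mark the match to TGACNNNGC, which lies on the opposite strand in each case and so is printed as its reverse complement. Windows of Gclm, Prdx1, Txnrd1 and Srxn1 held 1 match each. The windows of Nqo1, Txn1 and Slc7a11 and the other windows of Txnrd1 held none. Of these genes, Nqo1 was lower and the others were higher in MI. An element outside these short windows would not be found, so the lack of a match does not mean that a gene lacks an element. Whether matches bear on the direction of change was not tested.

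Gclm (GRCm38.p6 chr3:122245307-122245606, plus strand): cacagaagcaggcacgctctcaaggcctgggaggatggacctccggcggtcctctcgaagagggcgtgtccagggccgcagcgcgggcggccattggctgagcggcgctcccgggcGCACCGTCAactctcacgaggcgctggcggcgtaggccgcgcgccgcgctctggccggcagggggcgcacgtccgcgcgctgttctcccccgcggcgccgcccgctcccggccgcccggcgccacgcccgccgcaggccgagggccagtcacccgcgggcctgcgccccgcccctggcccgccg

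Prdx1 (GRCm38.p6 chr4:116685349-116685648, plus strand): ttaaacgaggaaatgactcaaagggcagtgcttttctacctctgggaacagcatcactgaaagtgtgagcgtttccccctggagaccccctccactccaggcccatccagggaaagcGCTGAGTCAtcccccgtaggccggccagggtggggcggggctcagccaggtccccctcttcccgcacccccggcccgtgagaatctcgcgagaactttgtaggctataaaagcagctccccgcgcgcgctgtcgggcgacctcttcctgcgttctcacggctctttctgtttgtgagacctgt

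Txnrd1 (GRCm38.p6 chr10:82858956-82859255, plus strand): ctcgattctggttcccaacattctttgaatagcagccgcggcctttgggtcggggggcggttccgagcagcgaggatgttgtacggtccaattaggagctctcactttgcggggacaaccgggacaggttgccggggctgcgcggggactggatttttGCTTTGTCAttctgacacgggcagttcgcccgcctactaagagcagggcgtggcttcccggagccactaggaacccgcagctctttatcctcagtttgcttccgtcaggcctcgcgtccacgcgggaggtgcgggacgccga

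Srxn1 (GRCm38.p6 chr2:152105274-152105573, plus strand): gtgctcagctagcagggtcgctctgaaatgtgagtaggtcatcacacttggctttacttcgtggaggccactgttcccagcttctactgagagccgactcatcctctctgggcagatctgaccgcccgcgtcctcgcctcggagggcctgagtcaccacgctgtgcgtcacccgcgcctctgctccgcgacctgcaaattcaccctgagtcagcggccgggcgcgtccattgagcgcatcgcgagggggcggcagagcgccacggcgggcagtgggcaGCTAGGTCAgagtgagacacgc

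Nqo1 (GRCm38.p6 chr8:107403156-107403455, minus strand): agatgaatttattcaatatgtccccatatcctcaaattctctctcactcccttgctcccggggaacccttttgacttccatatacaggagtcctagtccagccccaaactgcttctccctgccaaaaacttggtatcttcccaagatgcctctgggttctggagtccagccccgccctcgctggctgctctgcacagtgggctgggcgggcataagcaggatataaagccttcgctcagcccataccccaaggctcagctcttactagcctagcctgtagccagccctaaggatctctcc

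Counted from 1 at the first base of the window, the capitals began at base 117 in Gclm, 118 in Prdx1, 159 in Txnrd1 and 279 in Srxn1. The core was present in 4 of the 9 windows, against 12.4% of all 32851 windows in the table. The AP-1 letters were present in 2 of the 9 windows, those of Srxn1 and Prdx1 with 2 matches each, against 7.81% of all windows. In Prdx1 one AP-1 match overlaps the capitals. A match is a run of letters, not a bound site, and no binding was measured here.

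Read depth differed between groups. Total counts were 57.2 to 63.1 M (M, mega) in MI and 24.3 to 27.6 M in MISham, and 26.2 to 31.8 M in IR and 25.5 to 29.8 M in IRSham. Mitochondrial genes held 1.88 to 2.82% of counts in MI against 7.45 to 8.40% in MISham, and 1.93 to 3.26% in IR against 6.74 to 7.21% in IRSham. All 8 cardiomyocyte markers were lower in both injuries, their summed level being 13719 to 24499 CPM in MI against 59661 to 68368 CPM in MISham, and 15627 to 29735 CPM in IR against 64567 to 68462 CPM in IRSham. All 8 monocyte and macrophage markers were higher, with sums of 2411 to 3625 CPM in MI against 409 to 1044 CPM in MISham, and 2756 to 5080 CPM in IR against 776 to 1328 CPM in IRSham. Of 6 fibroblast and myofibroblast markers, 5 were higher and 1 lower in MI and 4 were higher in IR, with sums of 13825 to 17101 CPM in MI against 1239 to 4368 CPM in MISham, and 16203 to 19593 CPM in IR against 2978 to 4301 CPM in IRSham. All 5 lymphocyte markers were higher in MI and none was called in IR, with sums of 8.41 to 10.4 CPM in MI against 1.85 to 4.24 CPM in MISham. All marker sums in this text are CPM with library size as the only scaling. CPM of single genes are TMM-normalised, so sums and single genes are not on the same scale. The lymphocyte marker Cd3g was at 0 CPM in its lowest library, and no other marker of these lists was at 0 in any library. In bulk tissue, fewer cells of a type and less RNA per cell cannot be told apart. The part of these cell types in the results was not tested.

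After infarction, 9 of the 10 genes were higher in MI than in MISham and 1, Nqo1, was lower. Of all 19741 genes, 34.8% were called higher and 30.2% lower in that comparison. After reperfusion, 6 of the 10 were higher in IR than in IRSham (Txn1, Txnrd1, Prdx1, Srxn1, Gclm and Hmox1), Nqo1 was lower, and Gclc, Gsr and Slc7a11 did not pass the test, where 29.5% of all genes were called higher and 28.2% lower. Calls are at an adjusted p under 0.05 in edgeR's quasi-likelihood test with Benjamini-Hochberg adjustment over all genes tested. The median log2 fold change of the 10 genes was 1.15 in MI, against 0.08 over all genes, and 0.75 in IR, against 0.03 over all genes. With library size as the only scaling, all genes moved up by a median of 0.39 in MI and 0.32 in IR. The all-gene calls then split 9318 higher and 4270 lower in MI, against 6861 and 5960 with TMM, and 8411 higher and 3754 lower in IR, against 5814 and 5567. Under that scaling 9 members were higher and 1 lower in MI, and 8 higher and 1 lower in IR.

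**Figure D1:**
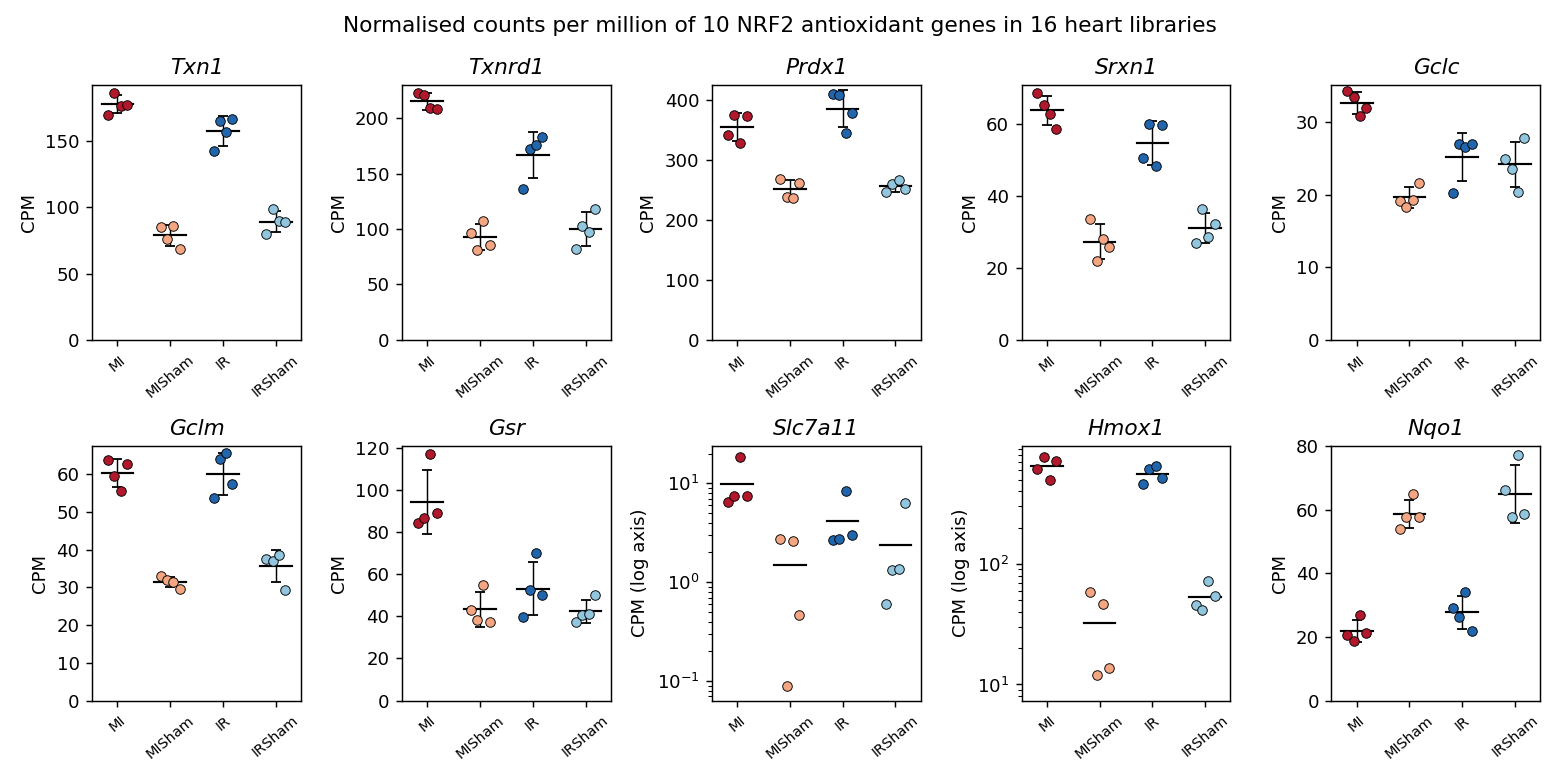
Normalised counts (CPM, vertical axis) of each of the 10 genes in the 4 libraries of MI, MISham, IR and IRSham; points are libraries, bars are group means and whiskers are 1 SD, with a log axis and no whiskers for Slc7a11 and Hmox1. The MI points lie above all MISham points for 9 genes and below them for Nqo1, while Gclc, Gsr and Slc7a11 overlap between IR and IRSham.

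Txn1 encodes cytosolic thioredoxin, the small dithiol protein that reduces disulfides in peroxiredoxins and many other targets. It stood at 170.0, 187, 177 and 178 CPM in the 4 MI libraries, against 84.9, 75.8, 86.2 and 68.8 CPM in MISham. In IR it stood at 142, 165, 157 and 167 CPM, against 79.8, 98.7, 89.6 and 89.1 CPM in IRSham. Every injured library lay above every sham library of its own comparison. The log2 fold change was 1.17 ± 0.08 (SE) in MI with an edgeR adjusted p of 4.58e-09, and 0.82 ± 0.08 in IR with an adjusted p of 2.73e-07. Groups with no overlap, all 4 injured libraries above all 4 sham libraries, were found for 34.1% of all genes in MI and 26.1% in IR.

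Txnrd1 encodes cytosolic thioredoxin reductase, the selenoprotein that recharges thioredoxin with electrons from NADPH. It had 222, 221, 209 and 208 CPM in MI, against 96.2, 81.3, 107 and 85.7 CPM in MISham. It had 136, 172, 176 and 183 CPM in IR, against 81.8, 103, 97.1 and 118 CPM in IRSham. The groups did not overlap in either comparison, and IR replicate 1 lay nearest to its sham libraries. Its log2 fold change was 1.22 ± 0.11 in MI (edgeR adjusted p 6.13e-08) and 0.74 ± 0.11 in IR (adjusted p 2.13e-05). Counts of Txnrd1 over Txn1 were 1.17 to 1.31 in MI, against 1.07 to 1.24 in MISham, and 0.957 to 1.12 in IR, against 1.03 to 1.32 in IRSham. The log2 ratio differed by 0.05 in MI and by -0.08 in IR, and an exact two-sided permutation test gave a p of 0.571 in each case, with the groups overlapping. The direction of these small differences turned in MI with summed TPM, at -0.009, and in IR without IRSham replicate 4, at 0.001.

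Prdx1 encodes the 2-Cys peroxiredoxin that destroys hydrogen peroxide with electrons from thioredoxin. Its change was the smallest of the members called higher in MI. The gene had 328 to 374 CPM in MI, against 237 to 268 CPM in MISham, and 345 to 410 CPM in IR, against 247 to 266 CPM in IRSham. The groups did not overlap. The log2 fold change was 0.50 ± 0.08 in MI and 0.59 ± 0.08 in IR, with edgeR adjusted p-values of 1.70e-05 and 3.98e-06, and with library size as the only scaling it was 0.81 in MI. Processed pseudogenes nearly identical to Prdx1 (Gm21399, 98.3% over 597 bases, and Gm7204, 97.5% over 597 bases) and to Txn1 (Txn-ps1, 95.8% over 309 bases) also carried counts. Copies of Prdx1 held 1.26 to 1.68% of the joint counts in MI and 0.733 to 1.32% in MISham, but at most 0.114% in IR and 0.051% in IRSham. Txn-ps1 held 0.352 to 0.640% in MI and 0.296 to 0.983% in MISham, and had no count in any IR or IRSham library.

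Srxn1 encodes sulfiredoxin, which repairs peroxiredoxins that peroxide has overoxidised. It reached 58.8 to 68.6 CPM in MI, against 21.9 to 33.7 CPM in MISham, and 48.3 to 60.2 CPM in IR, against 27.0 to 36.4 CPM in IRSham. The groups again did not overlap. Its log2 fold change was 1.22 ± 0.12 in MI and 0.82 ± 0.12 in IR, with edgeR adjusted p-values of 1.15e-07 and 1.45e-05. Among the 4 thioredoxin system members the changes thus ran from 0.50 to 1.22 in MI and from 0.59 to 0.82 in IR.

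Gclc and Gclm encode the catalytic and the modifier subunit of glutamate-cysteine ligase, the enzyme of the rate-limiting step of glutathione synthesis. Gclm rose in both injuries. It had 63.7, 59.4, 55.6 and 62.8 CPM in MI, against 32.9, 32.0, 31.3 and 29.6 CPM in MISham. It had 53.7, 64.0, 65.6 and 57.4 CPM in IR, against 37.5, 37.1, 38.7 and 29.3 CPM in IRSham. Groups did not overlap, and the log2 fold change was 0.94 ± 0.09 in MI and 0.76 ± 0.09 in IR (edgeR adjusted p 6.53e-08 and 1.24e-06).

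Gclc did not follow its partner in IR. It had 34.3, 33.4, 30.8 and 32.0 CPM in MI, against 19.1, 18.3, 19.3 and 21.6 CPM in MISham, with no overlap and a log2 fold change of 0.73 ± 0.10 (edgeR adjusted p 7.99e-06). In IR it had 20.2, 27.0, 26.6 and 27.0 CPM, against 24.9, 23.5, 20.3 and 27.8 CPM in IRSham. These ranges overlap almost completely. The log2 fold change in IR was 0.06 ± 0.10, with a 95% interval of -0.17 to 0.29 and an edgeR adjusted p of 0.647. Without IRSham replicate 3 it was -0.014, and with library size as the only scaling it was 0.35 and called.

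The modifier subunit gained on the catalytic one in both injuries. Counts of Gclm over Gclc were 1.86, 1.78, 1.81 and 1.96 in MI, against 1.72, 1.74, 1.62 and 1.37 in MISham. They were 2.66, 2.37, 2.47 and 2.13 in IR, against 1.502, 1.57, 1.90 and 1.05 in IRSham. All injured libraries exceeded all sham libraries of their comparison. The lowest injured and the highest sham ratio were 1.78 and 1.74 in MI, and 2.13 and 1.90 in IR. The log2 ratio was higher by 0.20 in MI and by 0.70 in IR. The exact two-sided permutation p was 0.0286 in each, the smallest that 4 against 4 allows, and 0.0429 after Benjamini-Hochberg adjustment over the 6 ratio tests. In MI the difference was 0.127 without MISham replicate 4.

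**Figure D2:**
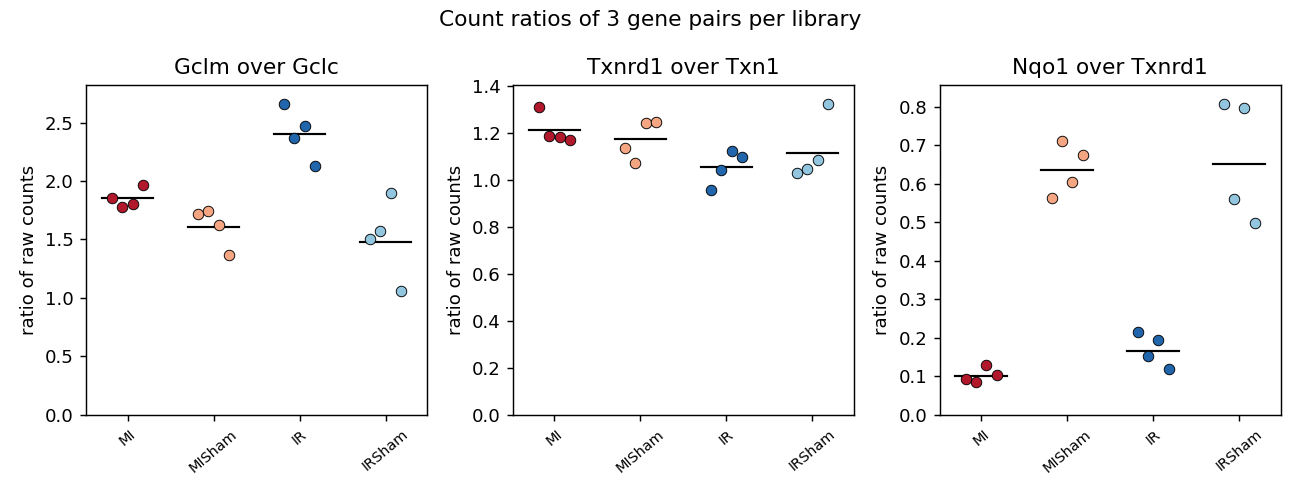
Ratio of raw counts of 2 genes in the same library (vertical axis, from 0) for 3 gene pairs in MI, MISham, IR and IRSham; points are libraries and bars are geometric means of the 4. Gclm over Gclc lies higher in both injuries than in their shams, Txnrd1 over Txn1 overlaps between each injury and its sham, and Nqo1 over Txnrd1 is at most 0.214 in any injured library and at least 0.499 in any sham library.

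Gsr encodes glutathione reductase, which returns oxidised glutathione to its reduced form with NADPH. It stood at 84.5, 86.7, 117 and 89.1 CPM in MI, against 42.9, 38.1, 55.0 and 37.2 CPM in MISham. In IR it stood at 39.7, 52.5, 70.02 and 49.99 CPM, against 37.4, 40.7, 40.9 and 50.1 CPM in IRSham. The MI groups were apart, whereas IR replicate 1 lay within the IRSham range and IR replicate 3 well above it. The log2 fold change was 1.12 ± 0.17 in MI (edgeR adjusted p 2.20e-05) and 0.33 ± 0.17 in IR, with a 95% interval of -0.03 to 0.69 and an adjusted p of 0.105. In IR it was 0.17 with an adjusted p of 0.382 without IR replicate 3, 0.44 with an adjusted p of 0.0305 without IR replicate 1, and 0.62 and called with library size as the only scaling.

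Slc7a11 encodes xCT, the cystine importer that feeds glutathione synthesis in exchange for glutamate. It was the least abundant member and the most variable. Its libraries had 6.50, 7.49, 18.3 and 7.41 CPM in MI, against 2.73, 0.0899, 2.64 and 0.467 CPM in MISham, where replicate 2 held only 2 counts. In IR they had 2.64, 2.70, 8.45 and 3.02 CPM, against 0.599, 1.32, 1.37 and 6.29 CPM in IRSham. The MI groups did not overlap, and in IR a single sham library, replicate 4, overlapped. The log2 fold change was 2.72 ± 0.83 in MI with an edgeR adjusted p of 0.0101, and 0.81 ± 0.79 in IR with a 95% interval of -0.91 to 2.54 and an adjusted p of 0.402. The IR value was 0.22 without IR replicate 3 and 1.95 without IRSham replicate 4 (adjusted p 0.843 and 0.0550).

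Slc7a11 can be set beside markers of neutrophils, whose sums have library size as the only scaling. The summed level of the 6 neutrophil markers was 206, 227, 459 and 212 CPM in MI, against 74.0, 30.9, 101 and 26.1 CPM in MISham. It was 100.2, 143, 194 and 157 CPM in IR, against 27.5, 72.5, 56.2 and 102 CPM in IRSham. In MI, IR and IRSham the library highest in the marker sum was also the highest in Slc7a11, and in MISham the top pair was the same. Of the 6 markers 5 were called higher in MI and 2 in IR, and none was at 0 in any library. The part of neutrophils in the Slc7a11 values was not tested. Across the 16 libraries, the 3 genes whose log2 CPM followed Slc7a11 most closely of 17700 compared were Il18rap, Mcemp1 and Il1r2, with Pearson's r of 0.967, 0.961 and 0.961. A stretch of a Slc7a11 transcript is also 92.5% identical to Tuba1b over 585 bases, and 15 genes and pseudogenes, alpha-tubulins among them, matched in this way. They held 97.9 to 99.3% of the counts of Slc7a11 and these copies together in MI and 99.1 to 99.96% in MISham, and 98.9 to 99.7% in IR and 98.1 to 99.8% in IRSham. Their summed level was 1509.5 ± 127 TPM in MI against 266 ± 51.1 TPM in MISham, and 1369 ± 302 TPM in IR against 319.7 ± 19.7 TPM in IRSham (SD, n = 4 each). The copies were thus far more abundant than Slc7a11, and their summed TPM did not overlap between either injury and its sham. How the authors counted reads matching several of these genes is not stated in the labels, and the part of such reads in the Slc7a11 values was not tested.

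Hmox1 encodes heme oxygenase-1, the inducible enzyme that splits heme into biliverdin, iron and carbon monoxide. Its change was the largest of the 10 in both injuries. It had 607, 767, 499 and 708 CPM in MI, against 58.5, 11.9, 46.5 and 13.6 CPM in MISham. It had 458, 614, 650.3 and 513 CPM in IR, against 45.3, 41.8, 72.0 and 53.7 CPM in IRSham. The groups were far apart in both comparisons. The log2 fold change was 4.30 ± 0.47 in MI, or 19.7-fold, with an edgeR adjusted p of 1.73e-06, and 3.39 ± 0.45 in IR, or 10.5-fold, with an adjusted p of 1.64e-05. Of all genes tested, 99.6% had a smaller log2 fold change in MI and 99.5% in IR.

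MISham libraries fell into a high and a low pair for Hmox1, with a ratio of 4.91 between the highest and the lowest. The marker sums set beside Hmox1 have library size as the only scaling, unlike its TMM-normalised CPM. Replicates 1 and 3, with 58.5 and 46.5 CPM, had monocyte and macrophage marker sums of 1044 and 792 CPM, while replicates 2 and 4, with 11.9 and 13.6 CPM, had sums of 409 and 461 CPM. Fibroblast and myofibroblast sums split in the same way, at 2886 and 4368 CPM in replicates 1 and 3 and 1239 and 1748 CPM in replicates 2 and 4, as did the neutrophil sums given above. Other groups differed in this. In MI the libraries highest and lowest in Hmox1 (767 and 499 CPM) were also highest and lowest in the monocyte and macrophage sum (3625 and 2411 CPM). In IR, replicate 3 was highest in Hmox1 (650.3 CPM) and lowest in that sum (2756 CPM). IR replicate 1, lowest in Hmox1 (458 CPM), had a sum of 4575 CPM. The part of these cells in Hmox1 was not tested. With replicates 2 and 4 alone in that group, the log2 fold change in MI was 5.66, and the log2 fold change of MISham against IRSham was -2.06. As these are the libraries lowest in Hmox1, their choice sets the direction of both values, and no test is read from them. With all 4 libraries the sham difference was -0.70 ± 0.42 with an edgeR adjusted p of 0.491. Among the genes most like Hmox1 across the 16 libraries were Dok1 and Cks2, with Pearson's r of 0.994 and 0.992.

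Nqo1 encodes the quinone reductase that NRF2 controls in many tissues, and was the only member that fell. It had 20.7, 18.6, 27.0 and 21.3 CPM in MI, against 54.1, 57.8, 64.8 and 57.9 CPM in MISham. It had 29.1, 26.3, 34.2 and 21.8 CPM in IR, against 66.2, 57.7, 77.2 and 58.8 CPM in IRSham. No injured library reached the lowest sham library. All 4 injured libraries lay below all 4 sham libraries for 28.6% of genes in MI and 25.4% in IR. Its log2 fold change was -1.42 ± 0.14 in MI and -1.22 ± 0.14 in IR, with edgeR adjusted p-values of 1.09e-07 and 9.96e-07. Under the 15 alternatives tried in each comparison it stayed between -1.53 and -1.11 in MI and between -1.44 and -0.94 in IR.

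Nqo1 was also set against Txnrd1 in the same library. Counts of Nqo1 over Txnrd1 were 0.0930, 0.0841, 0.129 and 0.103 in MI, against 0.563, 0.711, 0.606 and 0.676 in MISham. They were 0.214, 0.153, 0.194 and 0.119 in IR, against 0.808, 0.559, 0.796 and 0.499 in IRSham. The log2 ratio was lower by -2.66 in MI and -1.97 in IR, each with an exact two-sided permutation p of 0.0286 and 0.0429 after adjustment over the 6 ratio tests. Every injured library lay below every sham library. Nqo1 alone was lower and Txnrd1 alone higher in every injured library than in every sham library of its comparison. The separation of their ratio, and with it this p, was therefore fixed in advance and adds no support. Both genes come from 1 library in each ratio, so its scaling does not enter. Nqo1 ran against the other members across the 16 libraries. Pearson's r was -0.944 with Srxn1, -0.941 with Txn1 and, as the weakest, -0.621 with Slc7a11. Its nearest genes were Echdc3, Pdp1 and Gm27252 (r 0.984, 0.984 and 0.983). These correlations share the group differences and are given as a description. The cardiomyocyte marker sums above were lower in the same libraries, and their part in Nqo1 was not tested.

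**Figure D3:**
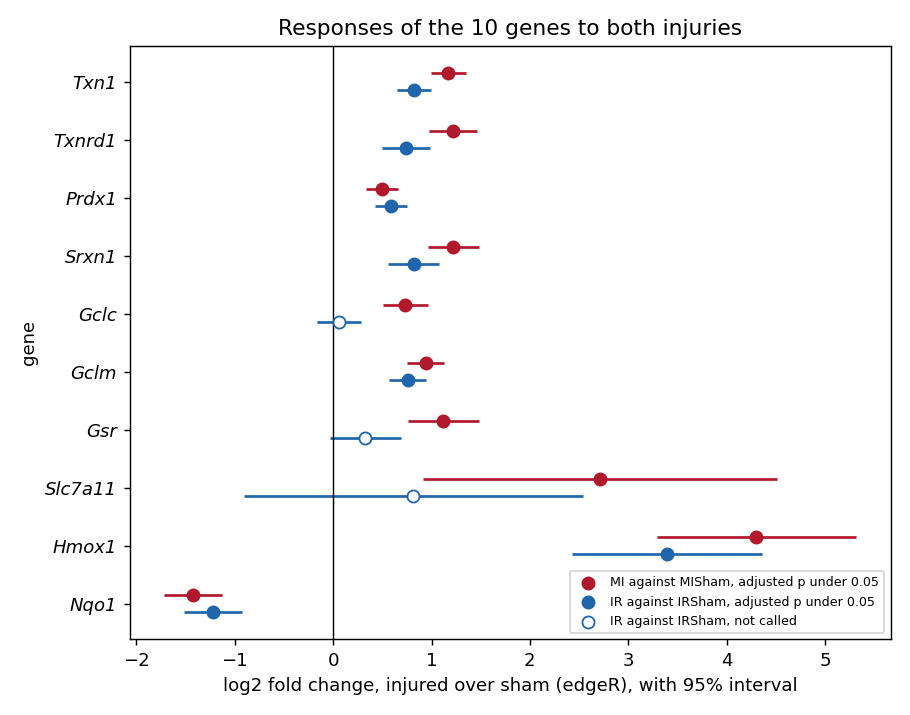
Log2 fold change of each gene with its 95% interval (horizontal axis) for MI against MISham and IR against IRSham; filled points passed the edgeR test at an adjusted p under 0.05 and open points did not. Hmox1 lies farthest to the right at 4.30 and 3.39, Nqo1 is the only gene left of 0, and the open points are Gclc, Gsr and Slc7a11 in IR.

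The responses to MI and to IR were then set against each other in the same fit, as MI over MISham minus IR over IRSham. None of the 10 differences passed the edgeR test, where 0.117% of all genes were called higher and 0.076% lower, but 5 had an unadjusted p under 0.05, and DESeq2 called 1, Gclc. Of those 5, the largest were Gsr, 0.79 ± 0.23 (edgeR adjusted p 0.146), and Gclc, 0.67 ± 0.15 (adjusted p 0.0678), followed by Txnrd1 at 0.48 ± 0.16, Srxn1 at 0.40 ± 0.17 and Txn1 at 0.35 ± 0.11. Gclc was also called without the filter on low counts (0.67) and without IR replicate 3 (0.70), where Gsr was called too (0.96). Hmox1 and Slc7a11 had larger differences, 0.91 and 1.90, with 95% intervals of -0.35 to 2.17 and -0.56 to 4.36. Prdx1, at -0.09, and Nqo1, at -0.20, had intervals of -0.33 to 0.14 and -0.61 to 0.21. With MISham replicates 2 and 4 alone in that group, 6 differences were called, but the left-out libraries are high for most of the 10 genes, so that leaving them out raises the MI response and these calls are no support. The median over the 10 was 0.44, against 0.04 over all genes.

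The sham groups, MISham against IRSham, also gave no call among the 10 in edgeR, against 2.34% of genes higher and 0.866% lower. Of the 10, 2 had an unadjusted p under 0.05, Gclc at -0.30 ± 0.11 and Txn1 at -0.18 ± 0.08, and DESeq2 called none. The median over the 10 was -0.18, against -0.04 over all genes. For every member the sham libraries overlapped, where 4.66% of all genes had all MISham libraries above all IRSham libraries and 4.19% had them below.

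Within groups, the same libraries were often high or low for several members. MISham replicates 1 and 3 were each among the top 2 of their group for 8 of the 10 genes, and replicate 2 was lowest for 5. IR replicate 1 was lowest for 7 of the 10 and replicate 3 was highest for 5. IR replicate 1 also had the highest cardiomyocyte marker sum of its group, 29735 CPM, against 15627 to 25747 CPM in the other IR libraries. In IRSham, replicate 1 was lowest for 6 genes. The spread within a group was widest for Slc7a11, with a coefficient of variation of 56.6% (MI), 94.4% (MISham), 67.4% (IR) and 109% (IRSham). That of Prdx1 lay between 3.40% and 7.98% over the 4 groups.

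**Figure D4:**
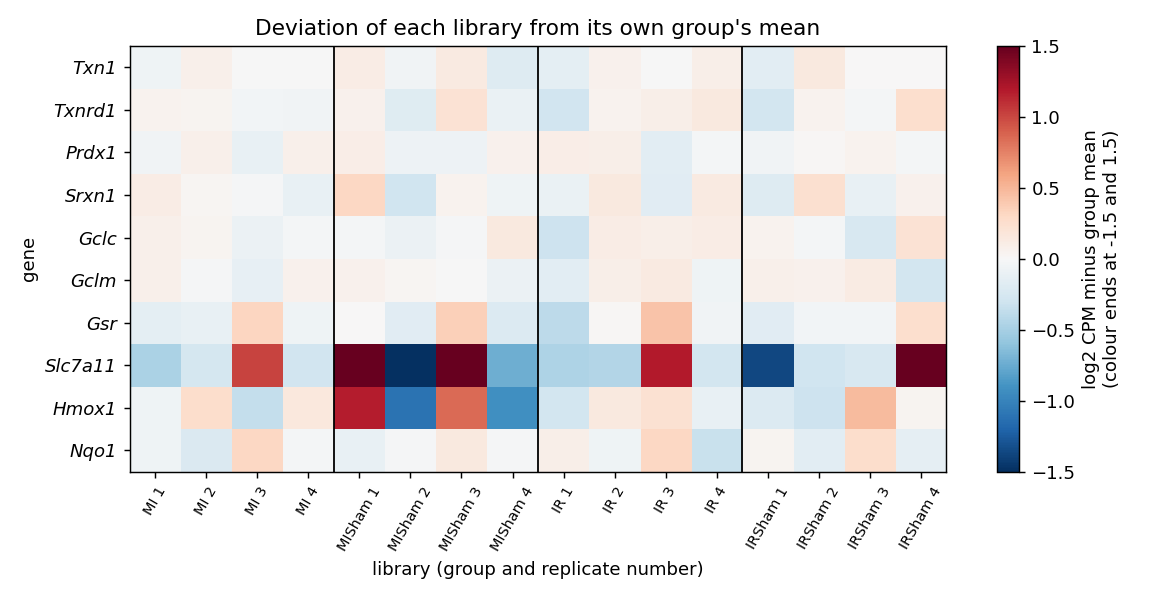
Deviation of log2 CPM from the mean of the library's own group (colour, from -1.5 to 1.5) for the 10 genes (rows) in the 16 libraries (columns). Slc7a11 and Hmox1 show the strongest colours, with MISham replicates 1 and 3 above and 2 and 4 below their mean for both, and IR replicate 1 is below its mean for most genes.

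Levels of different genes were compared per length, as TPM summed over the annotated transcripts of each gene. In MI, Hmox1 had the highest level at 546 ± 119 TPM (SD, n = 4), followed by Txn1 at 267 ± 27.2, Txnrd1 at 87.3 ± 8.37, Gclm at 60.6 ± 6.30, Gsr at 52.5 ± 6.92, Srxn1 at 34.3 ± 4.90 and Nqo1 at 18.8 ± 2.15 TPM. In MISham the order began with Txn1 at 69.5 ± 10.8 and Nqo1 at 30.1 ± 3.16 TPM, ahead of Txnrd1 at 22.9 ± 3.46, Gclm at 17.5 ± 0.155, Hmox1 at 16.8 ± 12.5 and Gsr at 15.3 ± 2.90 TPM. In IR Hmox1 was again first at 470.5 ± 101 TPM, with Txn1 second and Nqo1 seventh, while in IRSham Txn1 and Nqo1 again led at 81.1 ± 5.19 and 35.5 ± 5.94 TPM. In MI the only neighbours in this order with overlapping ranges were Gclm and Gsr, and in MISham Hmox1, at 5.81 to 30.0 TPM, overlapped Nqo1, Txnrd1, Gclm, Gsr and Srxn1. Slc7a11 was last in every group, at 1.14 ± 0.529 TPM in MI and 0.151 ± 0.149 TPM in MISham. Prdx1 is left out of this order: its counts gave 116 CPM per kilobase in MI and 127 in IR, but its annotated transcripts only 12.2 and 10.0 TPM, and the reason was not tested. By CPM per kilobase of gene length the order of other members differed too. In MI Gclm stood at 9.60, under Gsr at 34.2, Srxn1 at 22.6 and Nqo1 at 14.1. In MISham Txnrd1 at 13.1 and Gclm at 5.00 stood under Hmox1 at 18.6 and Gsr at 15.7. The order given is thus that of TPM alone.

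Summed TPM was also tested. With limma on log2(TPM + 1), 8 of the 9 members that reached a mean TPM of 1 were higher and Nqo1 was lower in MI and in IR alike, where 66.3% and 62.3% of 14323 genes were called higher and 12.8% and 12% lower. TPM scales every library to one sum, and all genes moved up by a median of 0.70 in MI and 0.57 in IR on this scale. The members' medians were 1.73 and 1.30. Gclc and Gsr, not called in IR by counts, were called here at 0.61 and 0.79 (limma adjusted p 0.00156 and 0.00590), close to that shift of all genes. Nqo1 was lower by -0.65 in MI and -0.57 in IR (adjusted p 0.000306 and 0.00121), with all genes up by the median given. The difference of the responses called none of the 9, against 0.0977% of genes higher and 0.0279% lower, and the shams called none, against 0.0419% higher and 0.0977% lower. A fold change on the log2(TPM + 1) scale understates the change of low genes.

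Single transcripts were tested in the same way. Of the transcripts of the 10 genes with a mean TPM of 1 or more, 17 were higher and 1 lower in MI, and 15 were higher and 1 lower in IR, where 49% and 42.5% of 40489 transcripts were higher and 10.1% and 9.23% lower. The lower one was Nqo1-201, the single Nqo1 transcript listed. Txnrd1 was spread over 3 coding transcripts, Txnrd1-201, Txnrd1-208 and Txnrd1-206, which held 37.1%, 34.5% and 22.7% of its TPM in MI and 35.4%, 35.6% and 24.1% in MISham. Gsr was split between the coding Gsr-201 and the processed transcript Gsr-202, with 42.7% and 53.8% in MI and 53.1% and 44.7% in MISham. The share of 1 transcript changed in MI by at least 10 percentage points and passed the limma test, that of Prdx1-204, at 58.3% ± 9.36 in MI against 86.1% ± 6.73 in MISham (SD, n = 4 each; limma adjusted p 0.00185). No share passed in IR, where that of Prdx1-204 was 53.2% ± 3.13 against 67.9% ± 6.05 in IRSham (adjusted p 0.0850). Of 25606 transcripts, 5.91% passed in MI and 3.88% in IR. The share rests on a summed Prdx1 level that was low against its counts, as stated above.

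The regulators of the pathway changed in both directions. Nfe2l2, which encodes NRF2 itself, had 102 to 111 CPM in MI, against 73.9 to 84.0 CPM in MISham, and 97.9 to 111 CPM in IR, against 74.0 to 82.1 CPM in IRSham. Its log2 fold change was 0.46 ± 0.06 in MI and 0.40 ± 0.06 in IR (edgeR adjusted p 3.69e-06 and 2.60e-05). Keap1 fell by 0.32 on the log2 scale in MI and by 0.23 in IR (adjusted p 0.000141 and 0.00331), but with library size as the only scaling it was at -0.011 in MI and turned to 0.062 in IR. Bach1, the competing repressor, rose by 0.38 in MI and 0.29 in IR, and Cul3, the scaffold of the ubiquitin ligase, fell by 0.67 in MI and 0.63 in IR. Nfe2l1, the related factor NRF1, fell by 0.93 in MI and 0.75 in IR. Maff, one of the small MAF partners, rose by 1.37 ± 0.17 in MI and stood at 0.30 ± 0.16 in IR with an adjusted p of 0.126. Its IR value was 0.43 and called without IR replicate 1, with an adjusted p of 0.0221, and 0.19 without IR replicate 4. With library size as the only scaling, values in MI and IR were 0.77 and 0.69 for Nfe2l2, 0.69 and 0.58 for Bach1, -0.36 and -0.34 for Cul3 and -0.62 and -0.46 for Nfe2l1, all called, and Maff in IR was 0.60 and called (adjusted p 0.00552). Of the 12 regulators listed, 6 were higher and 3 lower in MI, and 3 higher and 4 lower in IR. The shares over all genes were 34.8% higher and 30.2% lower in MI, and 29.5% and 28.2% in IR.

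Other genes of the redox network were counted on lists written from textbook knowledge. Of 123 tested, 49 were higher and 56 lower in MI, and 43 higher and 52 lower in IR, with medians of 0.04 and -0.10. With library size as the only scaling these counts were 60 higher and 45 lower in MI, and 57 higher and 41 lower in IR. Of all 19741 genes, 34.8% were higher and 30.2% lower in MI, against 39.8% and 45.5% of these 123. In IR 29.5% of all genes were higher and 28.2% lower, against 35.0% and 42.3% of these 123. In the sentences on these lists, a pair of values is the log2 fold change in MI and then in IR.

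Partners of the thioredoxin system were mostly lower, 14 of 18 in MI and 13 in IR, with 3 higher in each. Txnip, the inhibitor that binds thioredoxin, had 168 to 242 CPM in MI against 651 to 1245 CPM in MISham, a log2 fold change of -2.16 ± 0.30 (edgeR adjusted p 1.29e-05), and -1.49 ± 0.29 in IR. The stress-induced Sesn1 fell by 1.80 and 1.15, and the methionine sulfoxide reductase Msrb2 by 2.12 and 1.68. The mitochondrial peroxiredoxin Prdx3 fell by 1.61 and 1.34, the mitochondrial thioredoxin Txn2 by 0.90 and 0.79 and its reductase Txnrd2 by 0.86 and 0.92, whereas Prdx4, of the endoplasmic reticulum, rose by 1.41 and 1.47.

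The glutathione list gave 21 of 31 lower and 7 higher in MI, and 19 lower and 5 higher in IR. The transferase Gsta3 had 1.44 to 1.98 CPM in MI against 9.21 to 13.8 CPM in MISham, with a log2 fold change of -2.76 ± 0.23, and -1.84 ± 0.22 in IR. The transferases Gstm7 fell by 2.72 and 2.23 and Gstk1 by 2.57 and 1.91. The peroxidases Gpx1, Gpx7 and Gpx8 rose by 1.47, 1.90 and 1.02 in MI, and Gpx4, which protects membrane lipids, fell by 1.064. Slc3a2, the heavy chain that pairs with the Slc7a11 product, rose by 1.31 in MI and 0.82 in IR.

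NADPH is the electron source of Txnrd1, Gsr and Nqo1 alike. Of 16 genes that supply it, 7 were higher in each injury, with 6 lower in MI and 5 in IR. G6pdx and Pgd, which make NADPH in the cytosol, rose by 1.91 and 1.66 in MI and 1.60 and 1.15 in IR, and Tkt and Taldo1, which rearrange sugar phosphates, by 1.54 and 0.84 in MI and 1.21 and 0.61 in IR. These 4 were picked from the list for their role after their values were seen. Mthfd2, of mitochondrial folate metabolism, rose by 2.51 and 2.05. The mitochondrial Idh2 fell to 282 to 555 CPM in MI, against 2189 to 2568 CPM in MISham, a log2 fold change of -2.66 ± 0.32. Nnt fell by 2.67 and 2.00, at 0.252 to 0.442 CPM in MI against 1.64 to 3.22 CPM in MISham.

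Some genes that handle the products of heme oxygenase were also higher. Ftl1, the ferritin light chain, had 1373 to 1918 CPM in MI against 203 to 403 CPM in MISham, a log2 fold change of 2.54 ± 0.21, and 2.36 ± 0.21 in IR. Blvra and Blvrb, the biliverdin reductases, rose by 0.84 and 0.81 in MI and 0.78 and 0.93 in IR. Fech, the last enzyme of heme synthesis, fell by 1.44 and 1.18. On this list 3 of 8 were higher and 1 lower in MI, and 5 higher and 1 lower in IR. Over all genes 34.8% were higher and 30.2% lower in MI, and 29.5% and 28.2% in IR. The count higher in MI was thus near the share of all genes. Among 12 drug-metabolizing enzymes also named as NRF2 targets, 6 were higher and 6 lower in MI, and 6 higher and 5 lower in IR. Akr1b8 and Ptgr1 rose by 2.62 and 2.48 in MI and 2.02 and 1.79 in IR. Aldh3a1 fell by 1.65 in MI (edgeR adjusted p 0.0141), at -0.86 and not called with MISham replicates 2 and 4 alone and at -1.08 without MISham replicate 1, and stood at -1.12 in IR (adjusted p 0.0875). Nqo2, the paralog of Nqo1, fell by 0.67 and 0.52.

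Genes for making and removing superoxide complete the lists. Of 9 NADPH oxidase subunits tested, 7 were higher and none lower in both injuries, the other 2 being Duox1 and Duox2, and the median over the 9 was 1.85 in MI and 1.35 in IR. Nox4 rose by 2.91 ± 0.27 and 2.34 ± 0.26, and the phagocyte subunit Ncf1 by 2.01 in MI and 1.35 in IR. The mitochondrial dismutase Sod2 fell by 2.12 and 1.76, Sod1 by 0.67 and 0.83 and catalase, Cat, by 1.16 and 0.88, while the extracellular Sod3 rose by 0.99 and 0.87. Of 15 genes of the ATF4 amino acid response, which shares Slc7a11 as a target, 10 were higher and 2 lower in MI, and 7 higher and 3 lower in IR. Psat1, Atf3 and Slc7a5 rose by 2.45, 2.30 and 2.26 in MI and by 1.83, 1.83 and 1.61 in IR.

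**Figure D5:**
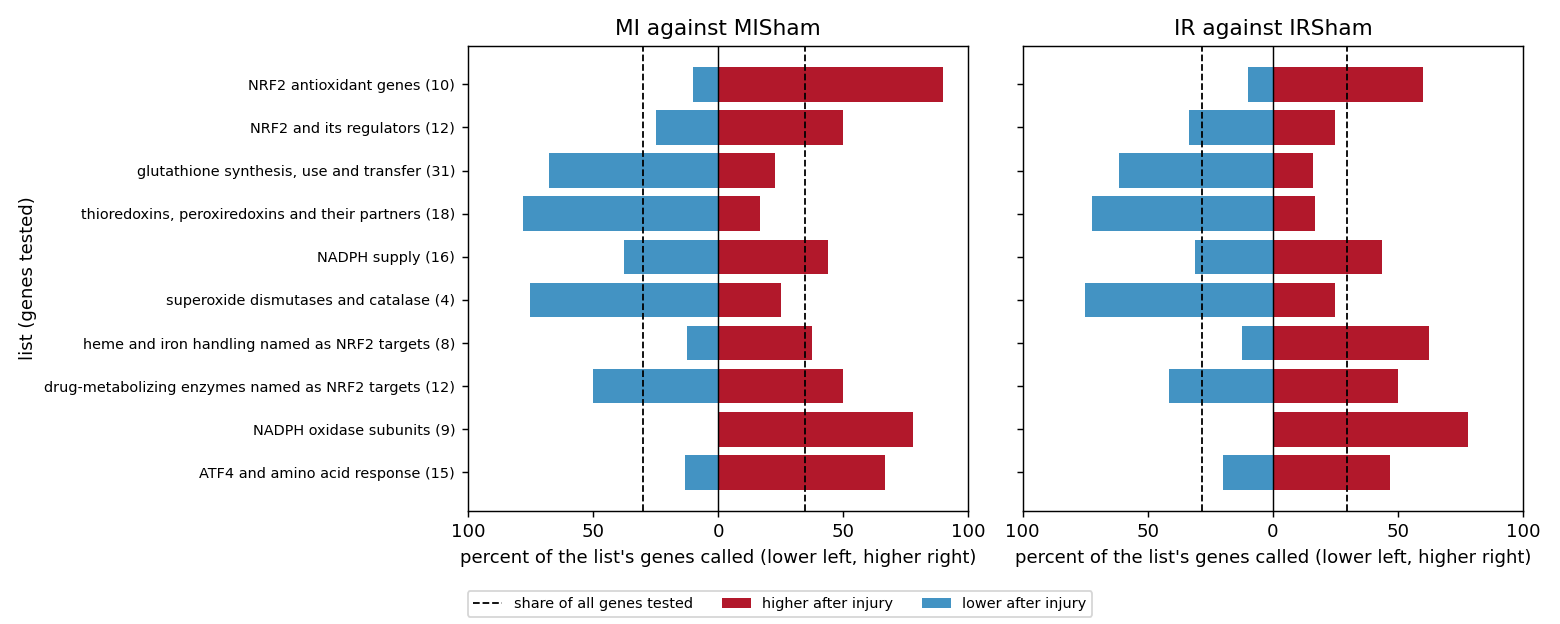
Percent of the tested genes of each list that were called higher (right) or lower (left) in MI against MISham and IR against IRSham by edgeR at an adjusted p under 0.05; dashed lines are the shares of all 19741 genes, and the number tested stands beside each list. The 10 NRF2 antioxidant genes and the NADPH oxidase subunits are mostly higher, and the lists of glutathione and of thioredoxin partners mostly lower.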

How the data were processed

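The authors deposited raw gene counts, whole numbers per gene and library with no normalization, and transcript abundances in TPM, scaled by the authors to one sum per library. Per the submitters' processing notes the tools included kallisto 0.50.1, featureCounts 2.0.1, HISAT2 2.2.1 and SAMtools 1.7, with the build GRCm39. Their roles, the annotation release and the strand setting are not given in the sources used here. Whether reads of a gene were kept apart from those of an antisense partner is therefore not known. Symbols came from GENCODE M21 by Ensembl ID without version, which gave a symbol to 52080 of 63318 genes and a gene to 138330 of 163740 transcripts. The other transcripts enter no gene's summed TPM. There were 2 columns of the TPM table that name no library and were not used. The 4 long-read libraries, 1 per group, have no column of their own and were not analysed here.

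Differential counts were assessed with edgeR 4.0.16 under R 4.3.3 (TMM; filterByExpr with a minimum count of 10 and minimum total of 15; robust quasi-likelihood fit of 4 group means over 16 libraries), with Benjamini-Hochberg adjustment over 19741 genes. SEs were computed as the fold change over the root of its F statistic, and 95% intervals use 12 degrees of freedom. Summed TPM and transcripts were tested with limma 3.58.1 (trend) on log2(TPM + 1), with a minimum mean TPM of 1. Transcript shares in percent were tested with limma without the trend. Shares needed a gene mean of 5 TPM and 2 transcripts of at least 5%, and a change of at least 10 points. Count ratios of 3 gene pairs were tested by exact permutation over libraries. Near-identical copies were sought with blastn 2.17.0 (at least 90% identity over 300 bases). The scripts were tested on simulated data. Alternatives were DESeq2 1.42.0, other scaling, no filter, fits of only the groups compared, the replicate number as a block, leaving out each library, and leaving out MISham or IR replicates 1 and 3.

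The members, lists, tests and alternatives were chosen with earlier results of these data known. Every member is named, with, from each list, the 3 genes of largest change and further genes picked for their role after their values were seen. The 3 most like genes were taken by Pearson's r of log2 CPM over the 16 libraries. Some genes that these rules name are not reported here.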

Additional observations from a re-analysis of the deposited data

Results flagged for a closer look

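Values within each group of 4 libraries were compared by the gap of the highest or lowest library to its nearest neighbour, as a share of the group's range, for 40 groups (10 genes in 4 groups). A library is marked above Dixon's 95% critical value, and chance marks about 5% of groups. There were 5 such values.

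Slc7a11 accounted for 3 of them. MI replicate 3 had 18.3 CPM, with the other MI libraries at 6.50 to 7.49 CPM. IR replicate 3 had 8.45 CPM, with the others at 2.64 to 3.02 CPM. IRSham replicate 4 had 6.29 CPM, with the others at 0.599 to 1.37 CPM. Gsr was also highest in MI replicate 3, at 117 CPM against 84.5 to 89.1 CPM. Gclc was lowest in IR replicate 1, at 20.2 CPM against 26.6 to 27.0 CPM.

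MI replicate 3 had the highest neutrophil marker sum of its group, 459 CPM, and the highest cardiomyocyte marker sum, 24499 CPM. Their part in these values was not tested.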

How the results depend on the processing

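The counts of members called in MI against MISham were 9 higher and 1 lower under all 15 alternatives. In IR against IRSham 6 to 8 were higher and 1 lower. The count for the difference of the responses was 0, but 1 without the filter on low counts, 1 with DESeq2, 6 with MISham replicates 2 and 4 alone in that group, where the libraries left out are high for most members and the calls are no support, and 0 to 2 when single libraries were left out. The fit with MISham replicates 2 and 4 alone also called 1 member, Hmox1, lower between the shams, with the libraries lowest in it kept. Leaving out single libraries gave 0 to 1 called transcript shares in IR, the 1 being Txnrd1-208 without IR replicate 3. The log2 count ratios ranged from 0.127 to 0.243 (MI) and 0.540 to 0.823 (IR) for Gclm over Gclc, from -2.77 to -2.57 and -2.10 to -1.81 for Nqo1 over Txnrd1, and from 0.00511 to 0.0768 and -0.121 to 0.00147 for Txnrd1 over Txn1. For Gclm over Gclc and Nqo1 over Txnrd1 no injured library overlapped a sham library, but with 3 libraries against 4 the exact permutation test can miss the threshold even then, so calls it lost say nothing of stability. With summed TPM, Txnrd1 over Txn1 in MI was -0.00915.

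Signs turned for Gclc in IR without IRSham replicate 3 (-0.0144, the others reaching 0.148) and for Keap1 in IR with library size only (0.0615). Between the shams they turned for Slc7a11 without IRSham replicate 4 (0.468, the others down to -1.12), for Prdx1 with only those groups in the fit (0.00325), and for Gsr without MISham replicate 3 (-0.102), without IRSham replicate 1 (-0.0202) and with MISham 2 and 4 alone (-0.167). None of these was a called value except Keap1. The cause was not tested.

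The labels state no pairing by replicate number. Deviations of same-numbered libraries from their group means correlated by -0.056 to 0.051 in both injury comparisons, a check that cannot exclude pairing. With the number as a block, Gsr in IR was called (0.30, adjusted p 0.0483), making 7 members higher. Depth limits Slc7a11 most, with 2 to 154 counts in the sham libraries.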
